A study of Mus musculus with 7 samples.

Results

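The cytosolic ribosomal protein genes were examined as a group of promoters in bulk ATAC-seq of HPC7, a mouse hematopoietic progenitor cell line kept in medium with stem cell factor. ATAC-seq uses the Tn5 transposase to insert sequencing adapters into accessible DNA, so that reads pile up at open chromatin regions (OCRs), and each deposited list holds the OCRs called in 1 library. The 7 libraries, numbered 1, 2 and 4 to 8, came from separate culture batches of this line, with no treatment given in the labels, so they form 1 group without a comparison of conditions. The members were the protein-coding genes of GENCODE M21 whose symbol is Rpl or Rps with a number and optional letters, or Rplp0, Rplp1, Rplp2 or Rpsa, with the Rps6k kinases left out. This gave 82 genes of 21938 protein-coding genes, 32 named for the small (40S) and 50 for the large (60S) subunit. The rule used names only and no measured value, and all coordinates are those of mm10.

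The cytosolic ribosome translates nuclear messenger RNAs and is built from a small subunit, which decodes the message, and a large subunit, which forms peptide bonds. Its proteins are needed in near equal amounts, and their genes are scattered over the genome, often host small nucleolar RNAs (snoRNAs) in their introns, and often start transcription at a C within a run of pyrimidines, the 5′ terminal oligopyrimidine tract through which translation of these messages responds to growth signals. Hematopoiesis is sensitive to the dose of these proteins: loss of 1 copy of several of them causes Diamond-Blackfan anemia, and loss of RPS14 contributes to the 5q- syndrome.

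Start-site sequences are shown first, because they describe most directly what some of these promoters have in common. At 8 members the annotated gene start was a C followed by at least 4 bases that are C or T. The stretches run from 20 bases before the start to the 20 bases that begin with it, read from mm10 5′ to 3′ on the strand of the gene, with the pyrimidine run in capitals, and 6 of them are shown.
Rpl37, chr15:5116625-5116664, plus strand: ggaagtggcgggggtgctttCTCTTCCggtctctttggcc
Rps21, chr2:180257357-180257396, plus strand: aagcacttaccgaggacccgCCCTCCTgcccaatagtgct
Rpl36, chr17:56613396-56613435, plus strand: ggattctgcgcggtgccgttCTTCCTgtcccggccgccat
Rpl37a, chr1:72711270-72711309, plus strand: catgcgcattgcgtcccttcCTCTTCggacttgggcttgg
Rpl4, chr9:64173355-64173394, plus strand: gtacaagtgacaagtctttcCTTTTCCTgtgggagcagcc
Rps27rt, chr9:114982720-114982759, minus strand: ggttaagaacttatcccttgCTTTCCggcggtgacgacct

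At 15 other members such a start was annotated only for another coding transcript of the gene. 5 of these are shown in the same layout, Rps2, Rps24 and Rps10 as runs far from the gene start, Rps27 as a run close to the summit of its OCR and Rpl10 for a run of 12 bases: Rps2 at 1994 bp, Rps24 at 3593 bp, Rps10 at 1425 bp, Rpl10 at 45 bp and Rps27 at 4 bp downstream of the gene start.
Rps2, chr17:24720090-24720129, plus strand: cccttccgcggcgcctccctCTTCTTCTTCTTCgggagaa
Rps24, chr14:24490698-24490737, plus strand: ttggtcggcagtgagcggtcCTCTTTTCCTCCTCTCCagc
Rps10, chr17:27635225-27635264, minus strand: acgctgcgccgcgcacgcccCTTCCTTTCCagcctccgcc
Rpl10, chrX:74270837-74270876, plus strand: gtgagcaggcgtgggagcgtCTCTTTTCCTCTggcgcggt
Rps27, chr3:90213628-90213667, minus strand: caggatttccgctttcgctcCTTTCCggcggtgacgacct
The run and the bases after it in Rps27 are the same as in Rps27rt, an intronless copy of Rps27.

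Short motifs around the start were the other feature. The promoters below run from 120 bases before the start to the 20 bases that begin with it (mm10, 5′ to 3′ on the strand of the gene), and the capitals mark the letters CCGGAAG, the core bound by ETS factors, or TCTCGCGA, a palindromic element of housekeeping promoters, on either strand. Rpl37 and Rps21 are shown as the members with the highest fold enrichment, and Rps6, Rps28, Rpl26 and Rpl7a for the TCTCGCGA element.
Rpl37, chr15:5116525-5116664, plus strand: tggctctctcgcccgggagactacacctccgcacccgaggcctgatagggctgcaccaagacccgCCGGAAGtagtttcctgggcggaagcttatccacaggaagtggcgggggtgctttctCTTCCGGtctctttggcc
Rps21, chr2:180257257-180257396, plus strand: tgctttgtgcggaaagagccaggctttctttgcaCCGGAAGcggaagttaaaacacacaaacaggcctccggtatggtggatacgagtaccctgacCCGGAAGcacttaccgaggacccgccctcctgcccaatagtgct
Rps6, chr4:86857393-86857532, minus strand: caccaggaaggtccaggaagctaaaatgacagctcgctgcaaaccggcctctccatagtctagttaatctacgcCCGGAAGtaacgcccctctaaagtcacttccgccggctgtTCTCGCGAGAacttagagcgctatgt
Rps28, chr17:33824543-33824682, minus strand: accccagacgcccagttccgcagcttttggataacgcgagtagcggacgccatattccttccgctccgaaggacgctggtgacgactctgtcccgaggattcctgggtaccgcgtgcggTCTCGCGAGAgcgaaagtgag
Rpl26, chr11:68901463-68901602, plus strand: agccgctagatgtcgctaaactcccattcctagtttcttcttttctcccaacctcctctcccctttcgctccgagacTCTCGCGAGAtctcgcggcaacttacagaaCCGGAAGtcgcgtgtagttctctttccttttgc
Rpl7a, chr2:26910644-26910783, plus strand: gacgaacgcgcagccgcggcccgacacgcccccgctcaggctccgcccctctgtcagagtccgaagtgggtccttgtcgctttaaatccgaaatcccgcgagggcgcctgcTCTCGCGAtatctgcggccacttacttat

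The lists held 84593 to 132852 OCRs per library. Intensity was taken as the deposited fold enrichment. Its values were those of (reads at the OCR summit + 1) divided by (background reads + 1), and it was a whole multiple of 1 step in 100% of OCRs in each library within a tolerance of 0.05 steps, so that the reads at a summit could be recovered. The background was 4.44 to 20.4 reads, and the median summit of the ribosomal protein promoters held 404 to 2324 reads, the most in library 1. Of 12 hematopoietic marker genes, such as Tal1, Lyl1 and Kit, 10 had an OCR within 1 kb of the gene start in all 7 libraries, and Gata2 and Erg had one at another coding start. None of 8 marker genes of other tissues, such as Alb and Myod1, had one in any library. The names of the OCRs inside the lists begin with VD in libraries 1, 2 and 4 and with EtOH in the other 4. Neither the labels nor the methods say what the prefixes mean, so no conditions were made from them.

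Most ribosomal protein promoters were open. An OCR overlapped the 1 kb on either side of the gene start in all 7 libraries for 77 of 82 members (93.9%), where the share over all protein-coding genes was 51.6%. With the start of any coding transcript of a gene allowed, the counts were 78 of 82 members (95.1%) and 54.6% of all genes. Of the mitochondrial ribosomal protein genes, which serve the separate ribosome of mitochondria, 76 of 78 had an OCR in all libraries, and of the proteasome subunit genes, another set needed in every cell, 35 of 40 did. The 5 members without a constant OCR were Rpl3l, Rpl10l, Rpl39l, Rps27rt and Rpl17. Rpl3l, known as the striated muscle form of Rpl3, had an OCR in library 1 only, with a fold enrichment of 3.09 and 65 reads at the summit. Rpl10l and Rpl39l, known as testis-expressed paralogs of Rpl10 and Rpl39, and Rps27rt had none in any library. A missing OCR means that no peak passed the threshold of the authors, whose lowest deposited −log10 q lay between 1.36 and 1.73, and not that no read was found there. Rpl17, a constituent of every ribosome, had no OCR at its gene start but had one in all libraries at another start 1919 bp downstream.

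In height the members were close to other open promoters. The median fold enrichment of members with an OCR was 87.5 ± 17.8 (mean of the library medians, SD, n = 7), and that of all open protein-coding promoters was 76.8 ± 13.0. The ratio of these medians was 1.14 ± 0.0602 and lay between 1.07 and 1.22, above 1 in each of the 7 libraries. With members without an OCR counted as 0, the median over all 82 was 84.0 ± 17.04. Ranked among all protein-coding genes of a library, the median member stood at percentile 75.5 ± 1.64, and ranked among the open promoters alone at percentile 56.9 ± 2.88. Ranked among all OCRs of a library, promoters or not, the median member stood at percentile 94.3 ± 0.996 and the median open promoter at 93.1 ± 0.911.

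Among open promoters, the members were few at both ends of the range. When these promoters were split into 10 classes of equal size by fold enrichment, the lowest class held 0.571 ± 0.535 members, the sixth 12.4 ± 1.81 and the highest 5.29 ± 0.951 (SD, n = 7), where an even spread would give each class 7.71. At or above the 90th percentile of all protein-coding promoters in all 7 libraries stood 6 of 82 members (7.32%), among them Rpl13a, Rpl15, Rpl37, Rps19 and Rps21, and 7.39% of all protein-coding genes. In single libraries, 10 to 14 members stood there, or 15.3% ± 1.97 of the 82 (SD, n = 7), where 9.99% to 10% of all protein-coding genes did. Among genes with an OCR in all libraries, 37 of 77 members (48.1%) were above the median open promoter in every library, beside 45.3% of all such genes, and 21 of 77 (27.3%) were below it in every library, beside 40.6%.

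**Figure D1:**
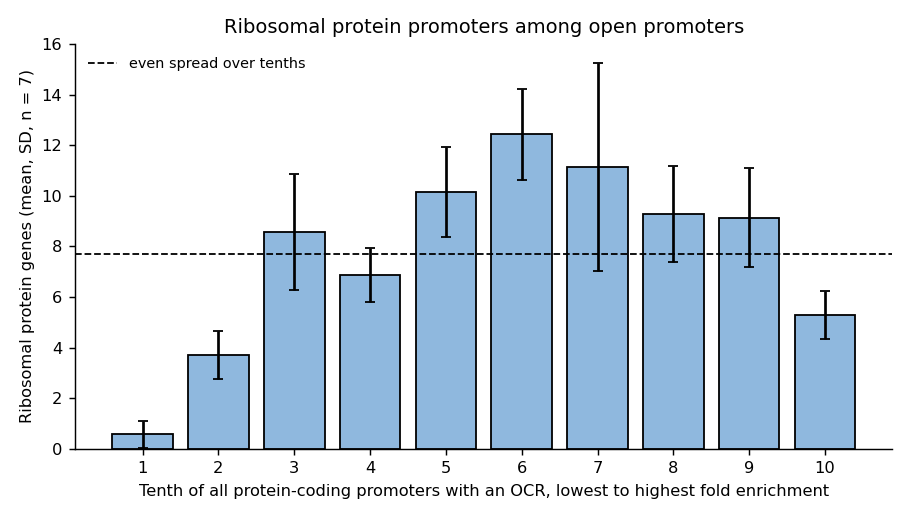
Number of ribosomal protein genes in each of 10 equal classes of the protein-coding promoters with an OCR, ordered from the lowest to the highest fold enrichment; bars are means and error bars SDs over the 7 libraries, and the dashed line is an even spread. The lowest class held 0.571 members on average and the sixth 12.4.

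At the gene starts, the fold enrichment differed 12.7-fold between the highest and the lowest of the 77 members with a constant OCR. The lowest was Rps14 at 18.2, which had 107 at another coding start, so the size of this range depends on the start used. Rpl37 (60S, chr15:5116645-5119140) had the highest, with a lowest, median and highest library of 164, 231 and 287 and a mean of 232 ± 49.5. Rps21 (40S, chr2:180257377-180258445) followed with 151, 206 and 256 and a mean of 203 ± 38.7. Rpl37 was above Rps21 in all 7 libraries, by 8.82 to 57.97.

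Rps19 (40S, chr7:24884371-24889806), the gene most often mutated in Diamond-Blackfan anemia, had a lowest, median and highest value of 135, 182 and 232. Its promoter percentile was between 95.0 and 98.4, above the 90th percentile in every library. Rpl15 had 121, 160.1 and 204 and Rpl13a, which also acts outside the ribosome as a translational silencer in inflammation, 123, 159 and 209. Below them were Rpl27 at 152 ± 36.3, Rps29 at 148 ± 28.8 and Rplp0 at 140.3 ± 29.8. Rpl27 was above Rplp0 in all 7 libraries and above Rps29 in 4 of 7.

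At the other end, Rps14 had a lowest, median and highest value of 13.9, 19.7 and 20.7, Rpl3 of 14.9, 20.6 and 31.2 and Rpl4 of 20.3, 25.0 and 42.5 at their gene starts. Above them were Rpl32 at 32.2 ± 6.24, Rps4x, the X-linked 40S gene, at 32.3 ± 7.19, Rpl35a at 37.7 ± 7.34, Rpl19 at 38.9 ± 7.86, Rpl6 at 41.1 ± 8.5 and Rpl8 at 44.0 ± 11.1. At the gene starts, no library value of Rpl37, Rps21, Rps19, Rpl15 or Rpl13a came down to the highest value of any of these 9 genes, which was 61.3 for Rpl8 in library 1. Both sets were picked by their means in these libraries, so this gap follows from the choice. It does not hold at downstream coding starts. There Rps14 reached 135 and Rpl3 126, above the lowest libraries of Rpl15 and Rpl13a at 121 and 123.

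The other members with a constant OCR lay between these ends. Rpl27a, Rpl28, Rpl34 and Rps20 had means of 138, 132, 125 and 124. Rps3, a 40S protein at the messenger RNA entry that also takes part in DNA repair, had a lowest, median and highest value of 70.1, 94.6 and 123. Rps6, the substrate of the S6 kinases, had 71.5, 104 and 123 and was above Rps3 in 4 of 7 libraries. Rps27a, which is made as a fusion with ubiquitin, had 53.3, 79.5 and 85.9. Rpl38, whose loss of 1 copy in mice alters the translation of Hox messages, had 48.2, 55.3 and 84.5, and Rpl24, the gene of the belly spot and tail mutation of mice, 40.7, 53.5 and 67.4. Rpl23, known to bind the p53 ligase MDM2, had 38.3, 46.4 and 67.3, and its highest library was below the lowest library of Rps20, Rpl34, Rpl28 and Rpl27a. The human counterparts of Rpl5, Rpl10 and Rpl22 are recurrently altered in T-cell leukemia. Rpl5 had 59.3, 73.4 and 86.9, Rpl10 55.5, 62.3 and 97.2 and Rpl22 74.1, 92.9 and 122. Rpl22 was above both of the others in all 7 libraries, and Rpl5 was above Rpl10 in 4.

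**Figure D2:**
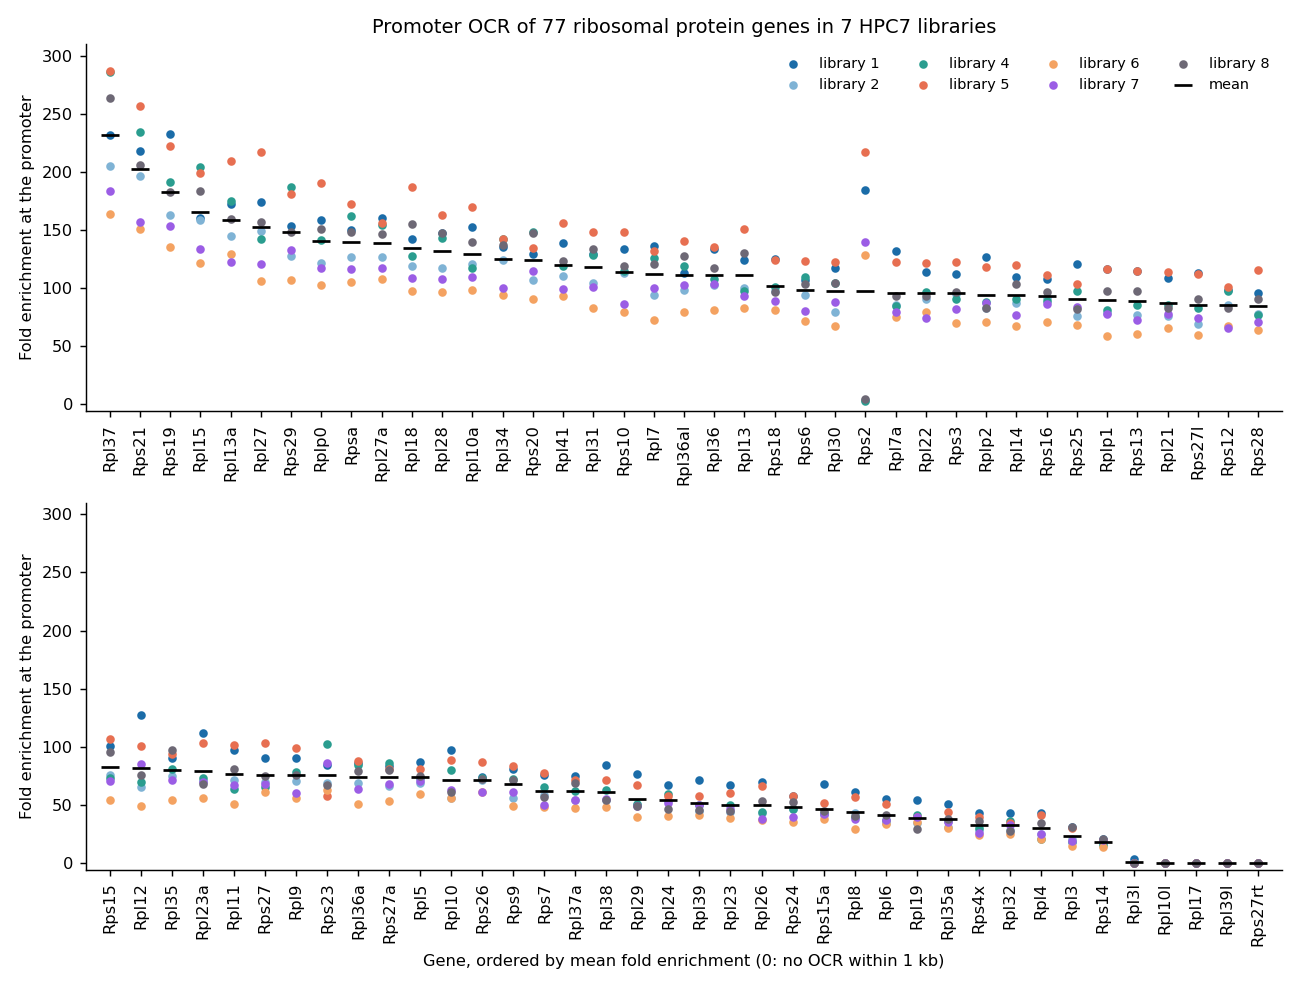
Fold enrichment of the highest OCR within 1 kb of the gene start for 77 of the 82 ribosomal protein genes (x axis, ordered by mean), one point per library and a dash for the mean; 0 means no OCR. Libraries 1 and 5 lie highest and library 6 lowest at most genes, and Rps2 is split into 4 high and 3 low libraries.

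At 4 members, the value depended on which annotated start was used. The gene start is the outermost start in GENCODE M21, and at Rps2, Rpl3, Rps14 and Rpl17 a coding transcript that begins downstream had a fold enrichment over 1.5 times higher. Rps2 (40S, chr17:24718116-24721929), whose protein lies at the entry of the messenger RNA channel, had gene-start values of 184, 3.67, 2.84, 217, 127.97, 139 and 4.66 in libraries 1, 2, 4, 5, 6, 7 and 8. The tall OCR at this gene had its summit 1889 to 1915 bp downstream of the gene start in every library. In libraries 2, 4 and 8 it began 1068 to 1278 bp downstream, outside the 1 kb window, and in the other 4 it reached within 575 bp of the gene start or across it. At the coding start 1947 bp downstream, the mean was 168 ± 30.0 with a lowest value of 127.97 in library 6 and a highest of 217 in library 5, and no library stood apart.

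Rps14 (40S, chr18:60747098-60778546), whose human counterpart lies in the region lost in the 5q- syndrome, went from the lowest place among constant OCRs to 107 ± 21.4 at a coding start 27498 bp downstream, with library values from 79.3 to 135. Rpl3, whose protein reaches near the peptidyl transferase center, went from 23.5 ± 6.91 to 90.9 ± 25.2 at a start 8462 bp downstream. Rpl17 went from no OCR to 55.3 ± 13.7 at a start 1919 bp downstream, with an OCR in all 7 libraries. Rps24 changed less, from 48.0 ± 8.62 to 67.1 ± 13.0. The other members kept a value within 1.5 times, and the median percentile of the 82 was 75.1 ± 1.67 with any start against 75.5 ± 1.64 with the gene start. Over all protein-coding genes, the any-start value was over 1.5 times the gene-start value, or above 0 where that was 0, for 5.4%.

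**Figure D3:**
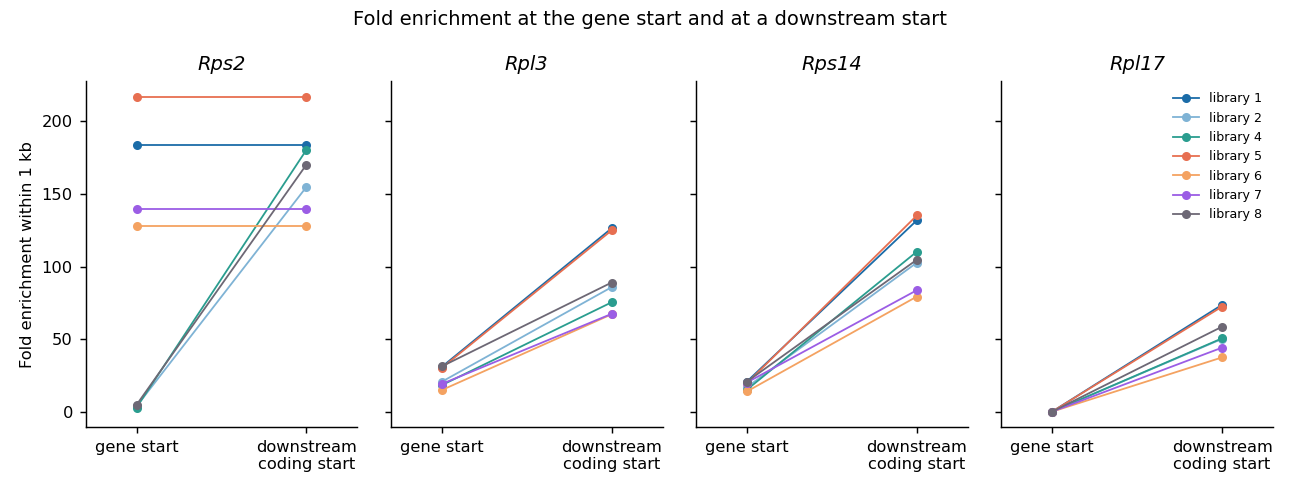
Fold enrichment within 1 kb of the annotated gene start (left point) and of the coding transcript start with the highest mean (right point) for Rps2, Rpl3, Rps14 and Rpl17, with one line per library. Rps2 is level in libraries 1, 5, 6 and 7 and goes up from below 5 in libraries 2, 4 and 8; the other genes are higher at the downstream start in all 7 libraries.

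By subunit, the median promoter percentile was 75.99 ± 1.37 for the 32 genes of the 40S subunit, of which 31 had an OCR in all libraries, and 74.9 ± 1.87 for the 50 genes of the 60S subunit, of which 46 did. Among members with an OCR in all libraries, the median fold enrichment of the 40S genes was above that of the 60S genes in 3 of 7 libraries. The ribosomal stalk, which recruits the GTPase factors of translation, is made of Rplp0, Rplp1 and Rplp2. Rplp0 had 102, 141 and 191 in its lowest, median and highest library, Rplp1 59.0, 81.2 and 117 and Rplp2 70.7, 86.6 and 126. Rplp0 was above Rplp1 and Rplp2 in every library. Rpsa, the 40S protein also known as the laminin receptor precursor, was at 139.9 ± 24.7, below Rplp0 in 4 of 7 libraries.

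All 19 members on a list of genes linked to Diamond-Blackfan anemia or the 5q- syndrome had an OCR in all 7 libraries, beside 77 of all 82 members (93.9%). Their median percentile was 73.1 ± 2.36 and their median fold enrichment 77.0 ± 14.1, beside 87.5 ± 17.8 for members with an OCR. Within the list the means ran from Rps19, Rpl15, Rpl27 and Rps29 at 183, 166, 152 and 148 down to Rps24, Rps15a and Rpl35a at 48.0, 46.8 and 37.7, apart from Rps14 at its gene start. Rpl5 and Rpl11, which bind the 5S ribosomal RNA and, when free of ribosomes, inhibit MDM2, were close at 73.5 ± 8.92 and 76.1 ± 18.3. Rps10, Rpl18 and Rpl31 were at 113 ± 24.2, 134 ± 30.5 and 118 ± 22.6. Rps7, Rps26, Rps27, Rps28 and Rpl26 had means between 50.0 and 84.2.

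Ribosome assembly and translation factor genes had an OCR at every gene. The 21 ribosome assembly genes, such as Ncl, which encodes nucleolin, at 296 ± 59.3 and Npm1, nucleophosmin, at 147 ± 28.2, had a median percentile of 82.6 ± 1.21. The 12 translation factor genes had 76.7 ± 2.87, the mitochondrial ribosomal protein genes 71.5 ± 1.01 and the proteasome subunit genes 71.2 ± 0.495, beside 75.5 ± 1.64 for the members. With any coding start allowed, the median percentiles were 81.7 ± 1.29 for ribosome assembly and 80.3 ± 2.58 for translation factor genes. They were then 70.3 ± 1.21 for mitochondrial ribosomal protein and 72.1 ± 1.05 for proteasome genes, beside 75.1 ± 1.67 for the members. The order of the sets thus depends in part on the start used. Differences between these sets were not tested. Genes of ribosomal proteins whose names fall outside the rule were in the same range: Fau, fused to a ubiquitin-like protein, at 87.4 ± 18.2, Rack1, the scaffold on the 40S subunit, at 74.1 ± 16.2 and Rps3a1 at 108 ± 18.2.

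The OCRs of the members were about as wide as those of other genes, with a median of 1763 ± 270.2 bp against 1695 ± 176 bp for all open promoters. The width was at or above the 90th percentile of open promoters in all 7 libraries for 4 of 77 members (5.19%) and for 4.86% of all genes with a constant OCR. Among these were Rpl36 at 4882 ± 998 bp, Rpl41, which encodes the shortest ribosomal protein, at 4155 ± 117 bp and Rpl7 at 3241 ± 321 bp. Rpl10a at 4822 ± 2502 bp and Rpl12 at 3602 ± 2805 bp were uneven, between 2791 and 7935 bp and between 1249 and 7875 bp in single libraries. Across genes, mean width and mean fold enrichment had a Spearman correlation of 0.419 over the 77 members and 0.578 over all 11327 genes with a constant OCR. Genes are not independent replicates, and both measures come from the same peak.

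The summits lay at the start site. The median signed distance was 5.43 ± 3.69 bp from the gene start and -20.6 bp from the nearest coding transcript start. The median absolute distance from the gene start was 74.9 ± 7.62 bp for members against 104 ± 3.91 bp for all open promoters. The highest library value of the members, 88.5 bp, was below the lowest value over all open promoters, 101 bp. Of the members with an OCR, 85.7 ± 2.56% had the summit within 250 bp of the start, and of all open promoters 72.9 ± 1.06%. The farthest upstream were Rpl4 at -562 bp, Rpl10 at -304 bp and Rpl13a at -229 bp, as medians over the libraries. The farthest downstream were Rps2 at 1889 bp, Rps14 at 1496 bp and Rps10 at 1318 bp. The summit of Rps10 was 107 bp from the coding start with the pyrimidine run shown above.

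**Figure D4:**
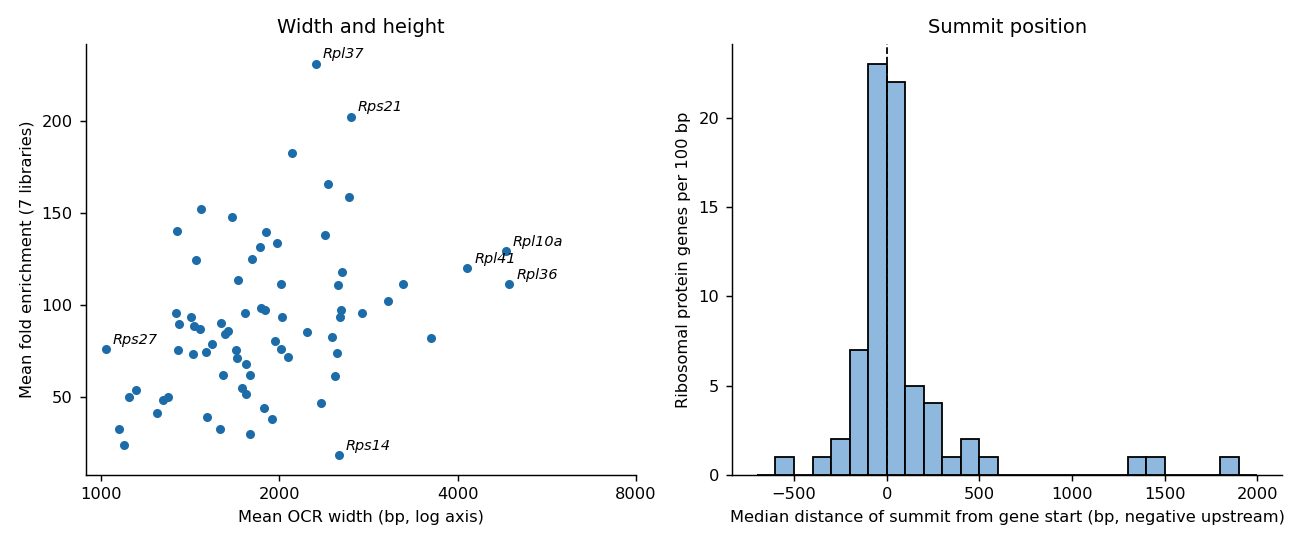
Left, mean OCR width (log axis) against mean fold enrichment over 7 libraries for 72 of the 77 ribosomal protein genes with an OCR in all libraries; right, number of these genes by the median distance of the summit from the gene start, in 100 bp bins with upstream to the left. Rpl36, at 4882 bp, is the widest gene drawn, and most summits lie within 250 bp of the start.

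Many members had another annotated gene start close by. Another gene started within 1 kb of 34 members (41.5%) and of 21.02% of all protein-coding genes. For 31 to 34 of the 34 the OCR also covered the start of the neighbor, depending on the library. The nearest was a snoRNA for 11 members, as Snord68 in Rpl13. A snoRNA inside its host counts here by its annotated start, which need not be a promoter, so these OCRs are not taken as shared. At Rps29 it was Rn7s1, a gene of the 7SL RNA of the signal recognition particle, 109 bp upstream in the other direction, and at Rps21 the microRNA gene Mir3091. A protein-coding neighbor lay within 1 kb of 16 members (19.5%, against 12.6%). In 9 of these (10.98% of members, against 6.6% of all genes) it was transcribed in the opposite direction from upstream. Examples were Ndufa7, a subunit of respiratory complex I, 10 bp from Rps28, Rab13, a small GTPase, 44 bp from Rps27, and Polr3a, the largest subunit of RNA polymerase III, 67 bp from Rps24. In other cases it overlapped from downstream on the other strand, as Nkiras1 at Rpl15 and Vps52 at Rps18. The reads at an OCR that also covers the start of a coding neighbor cannot be divided between the genes. The median fold enrichment was 86.9 ± 17.2 for members with a neighboring start and 81.4 ± 15.9 for the 48 without, and higher in all 7 libraries by 2.78 to 12.8. All 5 members without a constant OCR are in the second set, and among members with one the first set was higher in 3 of 7 libraries.

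A snoRNA gene lay within 29 members (35.4%) on the same strand, and within 1.18% of all protein-coding genes, although the members are short, with a median length of 3266 bp against 17425 bp. Rpl4 held 5 and Rpl13a held 4. The median fold enrichment was 88.0 ± 17.9 for the hosts and 80.3 ± 15.2 for the 53 other members, higher in all 7 libraries, and among members with a constant OCR it was higher in 6 of 7.

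The sequence features were set beside all protein-coding genes. A C followed by at least 4 pyrimidines stood at the gene start of 8 members (9.76%) and of 2.33% of all genes, and at some coding start of 23 members (28.0%), 13 of the 40S and 10 of the 60S subunit, and of 5.14% of all genes. These starts are annotated bases and were not measured here. A run that begins a few bases away is not counted, as in Rpl8 and Rpl26. The shares are therefore of annotated starts and not of all genes that may carry the tract. Of the 8, Rpl37 and Rps21 had the 2 highest mean fold enrichments of all members, and Rpl4 and Rpl32 were among the 10 lowest. The letters of a motif were then searched on both strands from 250 bases before to 50 after the gene start, a window of 300 bases. TCTCGCGA was found in 11 members, 13.4% beside 1.38% of all promoters of that length, and the ETS core CCGGAAG in 22, 26.8% beside 10.8%. The E-box CACGTG, bound by MYC and USF factors, had 13.4% beside 7.75%, AAGATGGCG, bound by YY1, 4.88% beside 1.7%, GGGCGG, bound by SP and KLF factors, 45.1% beside 43.0%, CCAAT, bound by NF-Y, 31.7% beside 39.01%, TATAAA 9.76% beside 12.6% and GCGCATGCG, bound by NRF1, 1.22% beside 2.48%. Within 150 bases on either side of the median summit of the 77 members with a constant OCR, TCTCGCGA had 15.6% beside 2.65% of the 11327 genes with one, CCGGAAG 38.96% beside 21.8% AAGATGGCG 9.09% beside 3.97%, CACGTG 19.5% beside 10.9% and CCAAT 29.9% beside 38.2%. For other motifs the order of members and all genes was not the same in this window: TATAAA had 9.09% beside 3.96%, GGGCGG 63.6% beside 69.6% and GCGCATGCG 3.9% beside 3.86%. A match is a run of letters and not a bound site, and matches to TCTCGCGA on both strands overlap where the palindrome is complete, as in Rps6 and Rps28.

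Paralogs were compared within libraries. Rpl10l and Rpl39l had no OCR in any library, beside 71.5 ± 16.9 for Rpl10 and 51.4 ± 10.4 for Rpl39, and Rpl3l had one in 1 library, beside 23.5 ± 6.91 for Rpl3. These 3 pairs are given as values and nothing is drawn from their tests, since a gene with an OCR set against a paralog at or near 0 could only be higher. With a window of 3 kb the mean of Rpl3 minus Rpl3l turned to -74.0, where that window gave Rpl3l a mean of 97.6 ± 41.7, and with any coding start it was 90.4 in place of 23.1. The wider window reached OCRs on the side of Rps2, which starts upstream of Rpl3l. In library 1 this was the OCR of 184 across the start of Rps2. In library 6 it was one of 56.8 that lay 3910 to 6861 bp downstream of that start. The 3 kb value is therefore not read as an OCR of the Rpl3l promoter. The 4 pairs with an OCR at both genes in all libraries were compared with an exact two-sided sign-flip permutation test over the 7 libraries, in which the smallest possible p is 0.0156. Adjusted p values (Benjamini-Hochberg) are over these 4 pairs, a choice made after the values were seen. Rpl36a, on chromosome X, was lower than its autosomal paralog Rpl36al, with means of 74.2 ± 13.8 and 111 ± 20.2 and a difference of -37.1 ± 9.97 (SD, n = 7) in 7 of 7 libraries (exact p = 0.0156, adjusted 0.0312). The OCR of Rpl36al is shared with Mgat2, a glycosyltransferase gene that starts 74 bp away in the other direction. Rpl7 was higher than Rpl7l1 by 39.6 ± 14.5 in 7 of 7 libraries (exact p = 0.0156, adjusted 0.0312). With any 1 library left out, this difference and that of Rpl36a kept their direction. Their adjusted sign-flip permutation p was then 0.0625 and did not pass, the lowest value they could reach with 6 libraries beside the other pairs. Rps27 and Rps27l, which is known as a target of p53, had 75.9 ± 15.3 and 85.7 ± 20.7, and the difference of -9.74 ± 9.27, negative in 5 of 7 libraries, did not pass (exact p = 0.0625, adjusted 0.0833). Rpl22 and Rpl22l1, whose message Rpl22 is known to repress, had 95.5 ± 17.2 and 94.0 ± 19.1. Their difference of 1.46 ± 12.0 ranged from -15.9 to 15.3 between libraries (exact p = 0.781, adjusted 0.781).

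**Figure D5:**
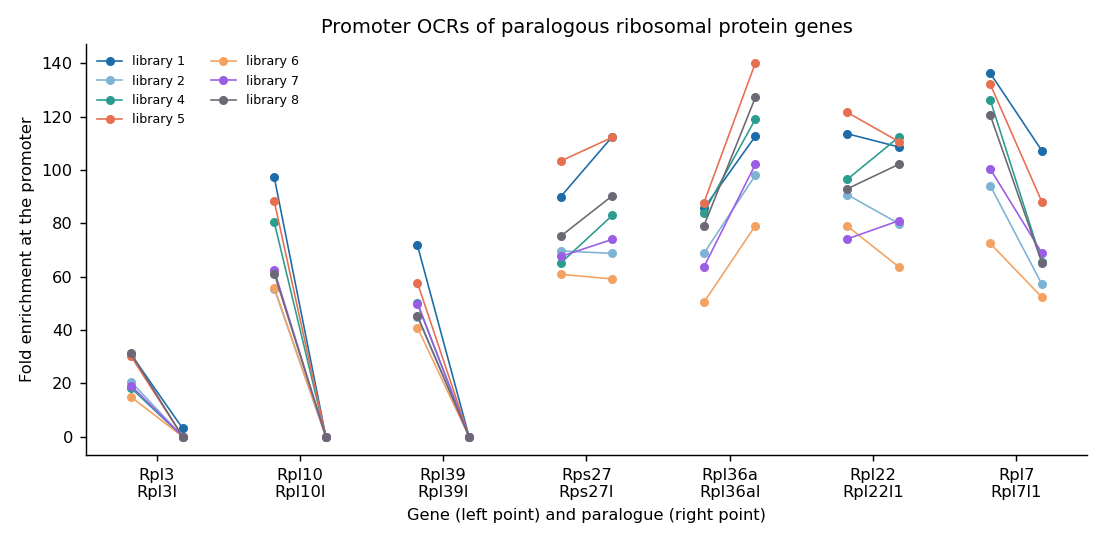
Fold enrichment within 1 kb of the gene start of each ribosomal protein gene (left point) and its paralog (right point), with one line per library and 0 for no OCR. All lines go down for Rpl3, Rpl10, Rpl39 and Rpl7 and up for Rpl36a, while those of Rps27 and Rpl22 go both ways.

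The 279 pseudogenes named for ribosomal proteins were mostly without an OCR. Of these, 16 (5.73%) had an OCR within 1 kb in all 7 libraries, 19 in some and 244 in none, and the median of the means of the 16 was a fold enrichment of 7.84. No share over all pseudogenes was taken, so whether 5.73% is low or high for pseudogenes is not known. Rpl29-ps2, annotated as a transcribed processed pseudogene, was the highest at 114 ± 28.2, beside Rpl29 at 54.7 ± 12.6, and the next with an OCR in all 7 libraries was Rpl5-ps2 at 14.1 ± 4.16. These pseudogenes resemble their parent genes in sequence, and the handling of reads that map to several places is not given in the sources used here.

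The members stood in a similar order in all libraries. Over the 21 pairs of libraries, the Spearman correlation of fold enrichment across the 77 members was between 0.868 and 0.976, and across all 11327 genes with a constant OCR between 0.964 and 0.989. After division by the median open promoter of each library, the median coefficient of variation was 8.97% for members and 9.23% for all. Before this division, the most uneven members after Rps2 were Rpl4, Rpl12, Rpl3 and Rpl26, with coefficients of variation of 31.6%, 31.6%, 29.4% and 26.7%. The median promoter percentile of the members was 74.5 to 77.8 in the 3 libraries with VD in their OCR names and 72.7 to 76.8 in the 4 with EtOH. The ranges overlap, the prefixes are not taken as conditions, and no difference between them was tested.

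Members on chromosomes 1, 8 and 17 had higher medians than the other members. The 12 members on chromosomes 1, 8 and 17 had a median fold enrichment, where open, of 112 ± 22.2 and a median percentile of 83.8 ± 1.51, and the 70 members on other chromosomes 82.6 ± 16.5 and 74.2 ± 1.3. All protein-coding genes showed the same direction, with a median open promoter of 100.3 ± 16.3 on these 3 chromosomes and 73.3 ± 12.8 on the others. These chromosomes were singled out with earlier results of these data known, so the difference is a description and not a test. The part of the chromosome in the values of single members was not tested.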

How the data were processed

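The authors checked the reads with FastQC, removed adapters with Cutadapt and mapped to mm10 by BWA-mem, and MACS2 was run on the libraries one by one. Versions and options are not given in the sources used here. Each deposited list gives the fold enrichment, a ratio whose values are those of (summit reads + 1) over (background reads + 1), as well as a −log10 p and a −log10 q. The deposited lists also hold a score, 10 times the −log10 q, and a summit offset. Whether the libraries were otherwise scaled to each other is not given in the sources used here.

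Genes and coding transcript starts came from GENCODE M21 on GRCm38 (mm10), and the gene start was the outermost annotated start. For each of 21938 protein-coding genes and each library, the highest fold enrichment among OCRs that overlapped 1 kb on either side of the start by at least 1 bp was taken, with 0 where there was none. Percentiles were ranks among these genes within a library. Depth entered through the reads recovered at each summit, and values are given with the SD over the 7 libraries. The members and lists were chosen with earlier results of these data known. Genes were named by a rule: the 10 highest and the 10 lowest means, members without an OCR in some library, the stalk, anemia and outside-rule lists, paralog pairs, the 5 most variable, the 5 widest and the 3 farthest summits on each side. Some genes and sequences that fall under the rule are not reported here. Other members named, and the pseudogenes, were chosen after their values were seen. Of 8 paralog pairs listed, 7 were compared, since Rps4l is not protein-coding in M21. All 7 were tested, but only the tests of the 4 pairs with an OCR at both genes in all libraries are used, with p adjusted over these 4, since in the others the paralog was at or near 0. The test was an exact permutation of the signs of the library differences (128 patterns). Alternatives were windows of 500 bp and 3 kb, any coding start, a −log10 q of at least 5, equal numbers of peaks, members without neighbors, genes outside chromosomes 1, 8 and 17, coding neighbors only or within 500 bp, percentiles in place of fold enrichment, and each library left out in turn. The window search, percentiles, recovery of reads and permutation test were tested on simulated data. Sequences were read from the RefSeq copy of GRCm38 with pysam 0.24.0 and samtools 1.23.1. Scripts ran in Python 3.11.15 with scipy 1.17.1, pandas 2.3.3, numpy 2.4.6 and matplotlib 3.10.9.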

Additional observations from a re-analysis of the deposited data

Results flagged for a closer look

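A sample was held to stand apart when its gap to the nearest other library as a share of the range of the 7 libraries was above Dixon's critical value, which chance gives in about 1 in 20 groups. Of 64 measures tested, 5 had such a library. The number of ribosomal protein genes with an OCR was 78 in library 1 and 77 in the other 6, the added gene being Rpl3l. With 6 tied values any difference in the remaining library meets this rule, so nothing is drawn from this flag. The median OCR width of all open promoters was 2063 bp in library 1, which had the most reads at its summits. The background of library 1 was 20.4 reads, against 4.44 to 7.45 elsewhere. Its median member summit held 2324 reads, against 404 to 717 elsewhere. These read counts also stand apart but are not among the 5. The promoter percentile of Rpl10a was 83.8 in library 4 at a fold enrichment of 116.8, and between 88.2 and 90.3 in the other libraries. The promoter percentile of Rpl36al was 79.4 in library 1 at a fold enrichment of 112.7, against 83.3 to 86.2 elsewhere. The promoter percentile of Rpl22l1 was 82.8 in library 4 at a fold enrichment of 112.3, against 77.4 to 79.2 elsewhere.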

How the results depend on the processing

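No paired analysis was possible because the 7 libraries form 1 group, so that no groups share replicate numbers (paralogs were compared within libraries). Of the medians, 42 values stayed within 1 SD of the libraries and 1 moved. Of the counts and shares, 36 stayed within 1.5 times the reported value, with no spread behind them, and 9 moved. Of the paralog differences, 73 kept their direction and their side of the threshold over 7 pairs and 4 turned in sign, the 3 pairs that are not used included. With members that have another gene start within 1 kb left out, 43 of 48 members had an OCR in all libraries. Measured from the nearest coding transcript start, the median summit lay at -20.6 bp in place of 5.43 bp, and so on the other side of the start. Counting only protein-coding neighbors gave 16 members in place of 34. With the 3 kb window, Rpl3 minus Rpl3l was -74.0, and with any coding start 90.4, in place of 23.1. The 3 kb window of Rpl3l took in OCRs from the side of Rps2, so its value is not that of the Rpl3l promoter. With any coding start, the pyrimidine start was found in 28.0% of members and 5.14% of all genes, GGGCGG in 69.5% and 53.2%, the YY1 motif in 9.76% and 2.80%, the NRF1 motif in 3.66% and 3.02%, so above the share of all genes in place of below it, and TATAAA in 14.6% and 20.7%. Around the summit, a setting chosen after seeing the data, the YY1 motif was found in 9.09% and 3.97% and the NRF1 motif in 3.90% and 3.86%. When libraries were left out singly, the members with an OCR in all remaining libraries numbered 77 each time, those at or above the 90th percentile 6 to 8, the median fold enrichment was 80.1 to 87.9, the median percentile 75.1 to 75.96 and the median width 1672 to 1802 bp. Rpl22 minus Rpl22l1 ranged from -0.852 to 4.35 and was negative without library 2 (-0.104), 5 (-0.124) or 6 (-0.852). Without any 1 library, Rpl36a minus Rpl36al was between -38.8 and -34.5 and Rpl7 minus Rpl7l1 between 36.1 and 42.9. Their adjusted exact permutation p over the 4 pairs, an adjustment added after seeing the data, was then 0.0625 and no longer passed. The smallest unadjusted p that 6 libraries can give is 0.0312, and both pairs were at it. With the other pairs above it, the adjusted p could not be lower, so this loss does not bear on how stable the differences are. Depth may limit a low call, at a background of 4.44 to 20.37 reads, but this was not tested.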
